A study of Mus musculus with 6 samples.

Results

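The 10 genes described here encode apolipoproteins, the protein components of the plasma lipoproteins and their relatives: Apoa1, Apoa2, Apoa4, Apoa5, Apob, Apoc1, Apoc3, Apoe, Apoh and Apom. They were taken by symbol from the 24421 genes of the count tables. The list of symbols was chosen with earlier results of these data known, and it leaves out other apolipoproteins, which are described further below. All 10 passed the filter on low counts, which left 12622 genes to test. The RNA came from liver of SS mice (3 libraries), in which the beta-globin locus carries the allele Hbbtm2(HBG1,HBB*)Tow, and of AS mice (3 libraries), which pair that allele with Hbbtm3(HBG1,HBB)Tow. HBB* is the sickle form of human beta-globin, so SS mice make sickle hemoglobin without a normal beta chain and AS mice make both forms. Mice of both groups were 7 months old and carried the human alpha-globin allele Hbatm1(HBA)Tow, and the AS controls therefore also carry human globins and a sickle allele. The labels give no sex, litter or day and do not say that replicates were separate animals, so a p-value here speaks of the spread among these libraries, which may be technical. The series title concerns impaired bile secretion in sickle cell disease, and SS liver is set against AS liver here for the genes of lipid export.

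The liver exports triglyceride in very low density lipoprotein (VLDL), each particle built on a molecule of ApoB that the microsomal transfer protein loads with lipid. ApoA1 and ApoA2 are the main proteins of high density lipoprotein (HDL), which carries cholesterol back to the liver, where it can leave the body in bile. The small exchangeable apolipoproteins move between particles and steer them: ApoE binds the receptors that clear remnants, ApoC3 and ApoC1 slow clearance, and ApoA5 promotes it. Apoa1, Apoc3, Apoa4 and Apoa5 lie together on chromosome 9 within 43340 bases (46228580 to 46271919, mm10). Apoc1 and Apoe are neighbours on chromosome 7.

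No apolipoprotein gene passed the test with all 6 libraries, and 9 of the 10 had lower fitted values in SS liver than in AS liver. Apoa4 was the exception, at 1.52 times its AS level in SS liver and higher in every SS library than in any AS library. Another 6 members, Apoa2, Apoa5, Apoc1, Apoc3, Apoe and Apoh, were lower in every SS library than in any AS library, by 37.0% to 44.1% in the fit. With edgeR (quasi-likelihood F-test, Benjamini-Hochberg adjusted over all genes), 0 of the 10 were called at an adjusted p under 0.05, against 0.967% of all genes tested. DESeq2, which called 3.59% of all genes, and limma-voom, which called 0.246%, also called 0 of the 10. At an unadjusted p under 0.05 edgeR took 3 of the 10 (12.7% of all genes), DESeq2 7 (14.1%) and limma-voom 7 (12.2%).

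The median log2 fold change of the 10 genes was -0.71, against 0.08 over all genes tested, 43.7% of which had lower fitted values. Most abundant liver transcripts were also lower in SS. Of the 122 genes whose group means averaged 1000 CPM or more (counts scaled to each library's effective size), 86.9% had lower fitted values in SS and their median was -0.49. Of the 10 members, 8 are among those 122 genes, and all 8 had lower fitted values. Groups that did not overlap and were lower in SS were found in 6 of those 8 members, against 42.6% of the 122 genes and 9.04% of all genes. Non-overlapping groups that were higher in SS were found in 12.1% of all genes, with Apoa4 the 1 member among them, and in 0.82% of the 122 abundant genes, with no member. Short transcripts were also lower in SS, and all members but Apoa5 and Apob have transcripts under 2 kb. Among genes of at least 10 CPM, the median log2 ratio of SS to AS means was -0.35 under 1 kb and -0.24 for 1 to 2 kb. It was -0.041 for 2 to 4 kb and 0.33 for 8 kb or more. In bulk liver RNA, fewer hepatocytes and less of a transcript per hepatocyte cannot be told apart. The 7 hepatocyte markers, among them Alb, summed to 69857.4 to 99665.1 CPM in SS and 83662.5 to 119291.6 CPM in AS, and none of them was called. Summed markers of some other cell types were higher in SS. The 7 erythroid precursor markers tested, 4 of them called higher, summed to 272.9 to 505.6 CPM in SS and 52.86 to 65.26 CPM in AS. The neutrophil markers (6 tested, 2 called higher) summed to 21.99 to 84.55 CPM in SS and 3.598 to 6.564 CPM in AS, and the 7 stellate cell markers, 2 called higher, to 364.5 to 605.4 CPM in SS and 312 to 341.2 CPM in AS. Not every marker followed its sum. Klf1, of the erythroid list, had means of 3.50 CPM in SS and 6.42 CPM in AS. Of the stellate list, Lrat had 18.5 CPM in both groups and Des had 7.42 CPM in SS and 7.16 CPM in AS. The 6 cholangiocyte markers (4 tested, none called) summed to 117.3 to 249.4 CPM in SS and 86.37 to 105.3 CPM in AS. Most of that came from Spp1, which is also on the list of recruited macrophages and monocytes used below. The sinusoidal endothelium sums overlapped. The part of these cell types in the members' levels was not tested.

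Gene reads per library ran from 6670011 to 13700194, and the lowest count of any member in any library was 2927 reads, of Apom, so counting error is small beside the differences between libraries. A pair of libraries stood apart and both bear on the values below. SS replicate 3 had the lowest of the 6 levels for 8 of the 10 members, and AS replicate 1 had the highest for 7. The closest pair by far was AS replicates 2 and 3, whose counts gave a chi-square per gene of 3.99, above sampling noise, against 27.9 to 170.4 for the other pairs.

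**Figure D1:**
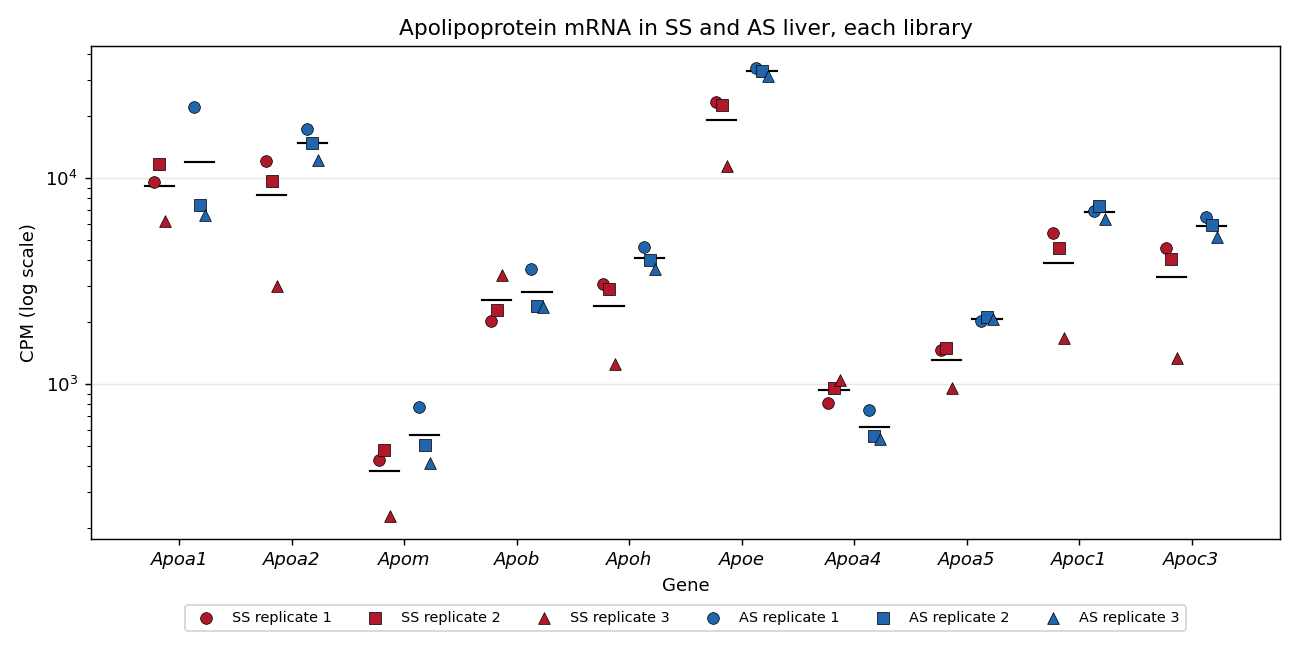
CPM on a log scale (y axis) of each apolipoprotein gene (x axis) in the 3 SS libraries (red) and the 3 AS libraries (blue), with a shape for each replicate number and a bar at each group mean. Apoa4 is higher in all SS libraries, 6 genes are lower in all SS libraries, and SS replicate 3 is the lowest library for 8 genes.

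Among the HDL proteins, Apoa1 did not differ in a stable direction and Apoa2 was lower in all SS libraries. Apoa1, which encodes the scaffold of HDL and activates cholesterol esterification (chromosome 9, 46228580 to 46230466), had 9605, 11712 and 6238 CPM in SS replicates 1, 2 and 3, against 22074, 7453 and 6610 CPM in AS replicates 1, 2 and 3. AS replicate 1 was far above the other AS libraries, and the groups overlapped. The log2 fold change of Apoa1 was -0.39 (SE 0.462, 95% interval -1.41 to 0.63, edgeR adjusted p = 0.746), and it was 0.37 without AS replicate 1 (edgeR adjusted p = 0.739).

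Apoa2, the second protein of HDL (chromosome 1, 171225054 to 171226379), had 12115, 9718 and 3009 CPM in the SS libraries and 17332, 14821 and 12303 CPM in the AS libraries. The groups did not overlap, but SS replicate 1 came just below AS replicate 3, and SS replicate 3 was far below the rest. The log2 fold change was -0.84 (SE 0.443, edgeR adjusted p = 0.457), and -0.45 without SS replicate 3. Apom, a lipocalin that carries sphingosine 1-phosphate on HDL (chromosome 17, 35128997 to 35132050), was the member with the lowest counts, at 427, 478 and 229 CPM in SS and 780, 507 and 417 CPM in AS. Its groups overlapped (log2 fold change -0.59, SE 0.349, edgeR adjusted p = 0.504), and dropping AS replicate 1 gave -0.30, dropping SS replicate 3 gave -0.34 and dropping both gave -0.031.

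Apob, the structural protein of VLDL (chromosome 12, 7977648 to 8016835), had near equal means in the groups. It stood at 2039, 2286 and 3404 CPM in SS and 3648, 2395 and 2367 CPM in AS. The library that was low for most other members, SS replicate 3, was the highest SS library for Apob. The log2 fold change was -0.12 (SE 0.310, 95% interval -0.81 to 0.56, edgeR adjusted p = 0.888). It was -0.38 without SS replicate 3 and 0.11 without AS replicate 1.

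Apoe, the ligand by which remnant particles are cleared (chromosome 7, 19696109 to 19699188), was the most abundant member by reads. It had the lowest unadjusted p by edgeR, at 0.03464, all but equal to that of Apoa5, at 0.03465. It had 23569, 22697 and 11475 CPM in SS and 34168, 33299 and 31480 CPM in AS. The 3 AS libraries lay close together, and all SS libraries were below them. The log2 fold change was -0.78 (SE 0.320, 95% interval -1.49 to -0.068, edgeR adjusted p = 0.356), and -0.52 without SS replicate 3. Macrophages also make ApoE. The 12 markers of recruited macrophages and monocytes, 6 of which were called higher, summed to 511 to 818 CPM in SS and 269 to 342 CPM in AS, while the 10 Kupffer cell markers, none of them called, summed to 1040 to 2548 CPM in SS and 842 to 1138 CPM in AS. Their part in the Apoe level was not tested. Apoh, a phospholipid-binding plasma glycoprotein also known as beta-2-glycoprotein (chromosome 11, 108343354 to 108414396), had 3072, 2901 and 1262 CPM in SS and 4642, 4016 and 3614 CPM in AS. Its groups did not overlap (log2 fold change -0.76, SE 0.352, edgeR adjusted p = 0.406, and -0.46 without SS replicate 3). Prkca overlaps Apoh by 575 bases on the other strand and had 74, 154 and 127 reads in SS and 85, 79 and 146 reads in AS.

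The exchangeable apolipoproteins that act on triglyceride-rich particles split between Apoa4 and the rest. Apoa4, an intestinal and hepatic protein that is induced by lipid load in mouse liver (chromosome 9, 46240696 to 46243459), had 812, 956 and 1048 CPM in SS and 752, 562 and 542 CPM in AS. All SS libraries were above all AS libraries, although SS replicate 1 and AS replicate 1 were close. The log2 fold change was 0.60 (SE 0.265, 95% interval 0.014 to 1.19, edgeR adjusted p = 0.386), and it was 0.50 to 0.76 when any 1 library was left out. Of 5 enterocyte markers, Alpi had 0 counts in every library, Cdx2 had 0 reads over the SS libraries and 1 over the AS libraries, Vil1 had 16 and 3, and Sis had 23 and 5. Fabp2, the 1 marker of that list tested, had a mean of 55.7 CPM in SS and 111.8 CPM in AS. The annotation places 2 genes on the opposite strand across parts of Apoa4, and 1 across part of Apoa5. The strand setting of the counting was not given in the sources used here, so reads from those partners cannot be told apart from reads of Apoa4 and Apoa5.

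Apoa5, which promotes lipolysis of triglyceride-rich particles (chromosome 9, 46268633 to 46271919), had 1463, 1502 and 957 CPM in SS and 2028, 2133 and 2066 CPM in AS. The AS libraries spanned a narrow range and the SS libraries were all below it (log2 fold change -0.67, SE 0.275, 95% interval -1.28 to -0.058, edgeR adjusted p = 0.356). Apoc3, an inhibitor of lipolysis and of remnant uptake that lies between Apoa1 and Apoa4 (46232933 to 46235636), had 4578, 4053 and 1337 CPM in SS and 6485, 5905 and 5205 CPM in AS. Apoc1, which inhibits remnant uptake and lipid transfer (chromosome 7, 19689481 to 19692660), had 5398, 4567 and 1686 CPM in SS and 6977, 7361 and 6334 CPM in AS. Both were lower in all SS libraries, with SS replicate 3 far below the others. Their log2 fold changes were -0.82 (SE 0.411, edgeR adjusted p = 0.434) for Apoc3 and -0.83 (SE 0.393, edgeR adjusted p = 0.417) for Apoc1, and -0.45 and -0.48 without SS replicate 3.

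Together the 10 genes took 6.86%, 6.13% and 3.70% of gene reads in the SS libraries and 8.24%, 7.30% and 6.85% in the AS libraries, a mean of 5.56% ± 1.65 in SS and 7.46% ± 0.706 in AS (SD, n = 3 each). SS replicate 1 and AS replicate 3 were nearly equal, and SS replicate 3 was the lowest by far. Apoe alone took 2.08% ± 0.615 of gene reads in SS and 2.995% ± 0.133 in AS. Without AS replicate 1 and SS replicate 3 the difference in the summed share was -0.585 percentage points, against -1.90 with all libraries.

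Levels between genes were compared per length, as CPM per kilobase of the GENCODE principal transcript. By group mean Apoa2 and Apoe stood first and second in both groups, at 15986 ± 9112 and 13670 ± 4790 CPM per kilobase in SS and 28608 ± 4854 and 23425 ± 974 CPM per kilobase in AS (SD, n = 3 each). In neither group did the ranges of those 2 genes over libraries separate from each other, and in SS they did not separate from Apoa1. Compared inside each library, Apoa2 was above Apoe in every AS library but not in SS replicate 3. Apoe was above Apoa1 in every SS library. In SS replicate 3 Apoa2 was below Apoa1, at 5809 against 6027 CPM per kilobase. Apoa1, Apoc1 and Apoc3 followed at 6317 to 8874 CPM per kilobase in SS and 11151 to 12952 in AS. Their ranges over libraries overlapped in both groups, although Apoc1 was above Apoc3 inside every library. Apoh came next, at 2027 ± 840 CPM per kilobase in SS and 3438 ± 435 in AS, above Apoa5 in every library of its group. Apob was the lowest per length in both, at 185 ± 52.2 CPM per kilobase in SS and 201 ± 52.5 in AS. Apoa4 and Apom changed places: Apoa4 averaged 517 and Apom 373 CPM per kilobase in SS, against 341 for Apoa4 and 560 for Apom in AS. Within libraries, Apoa4 was above Apom in all 3 SS libraries (447, 527 and 577 against 422, 472 and 226 CPM per kilobase) and below it in all 3 AS libraries (415, 310 and 298 against 770, 500.3 and 412). The order is given as a description, and SS replicate 1 was close to equal.

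SS replicate 3 was lowest for the members with the shortest transcripts, but not in proportion to length. Against the mean of SS replicates 1 and 2, that library had log2 ratios of -1.86 for Apoa2, -1.69 for Apoc3 and -1.56 for Apoc1, whose transcripts are 518, 526 and 532 bases long. Members of 1013 to 1408 bases (Apom, Apoa1, Apoh and Apoe) had log2 ratios of -0.77 to -1.24. Apob, at 13934 bases, had a log2 ratio of 0.65. Apoa5, of 2515 bases, had -0.63, and Apoa4, of 1815 bases, had 0.25. All genes of at least 10 CPM also showed a gradient with length in that library. The median log2 ratio of SS replicate 3 was -0.99 for 526 genes with transcripts under 1 kb, 0.0067 for 3089 genes of 2 to 4 kb and 0.65 for 369 genes of 8 kb or more. In that library 8 of the 10 members lay below the median of their own length class. Apoa1, Apoe, Apoh and Apom were below a class median of -0.48 (1 to 2 kb), Apoa2, Apoc1 and Apoc3 below -0.99, and Apoa5 below 0.0067. Apoa4 lay above its class median and Apob was at its own.

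AS replicate 1 showed a smaller gradient with length over all genes, of the opposite sign. Its median log2 ratio to the mean of AS replicates 2 and 3 was 0.33 for genes under 1 kb. It was 0.0038 for 2 to 4 kb and -0.22 for 8 kb or more. The members of that library did not all follow the gradient. Its log2 ratio to the mean of AS replicates 2 and 3 was 1.65 for Apoa1, 0.76 for Apom and 0.62 for Apob, against class medians of 0.18 for 1 to 2 kb and -0.22 for 8 kb or more. Apoa5, Apoc1 and Apoe stood near the other AS libraries, at -0.051, 0.027 and 0.077. The Apoa1 level of that library was thus far above the median of genes of like length.

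**Figure D2:**
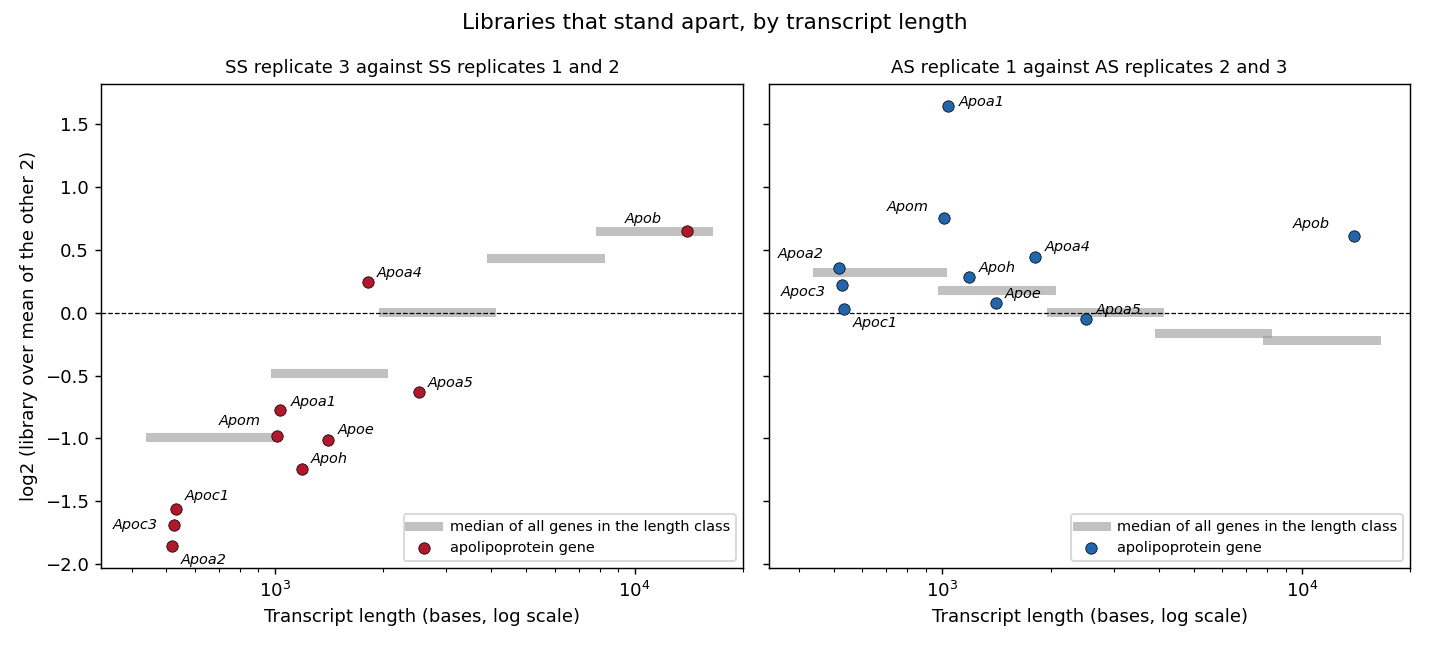
log2 ratio of SS replicate 3 to the mean of SS replicates 1 and 2 (left, red) and of AS replicate 1 to the mean of AS replicates 2 and 3 (right, blue) on the y axis, against transcript length on a log scale. Points are the apolipoprotein genes and grey bars the medians of all genes of at least 10 CPM in each length class, after adding 1 CPM to both sides. On the left the shortest transcripts lie lowest and Apob, the longest, lies highest, without a steady rise between them. On the right Apoa1 stands alone at 1.65.

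A fit with each library's trend on transcript length as an offset was added after the data were seen, over the 12184 tested genes with a length. It left the directions of all 10 members as they were. The median of all genes was -0.11 in it. The members' log2 fold changes were -0.77 for Apoe (SE 0.219, 95% interval -1.25 to -0.28), -0.81 for Apoa5, -0.78 for Apoa2, -0.75 for both Apoc1 and Apoc3, -0.74 for Apoh and 0.60 for Apoa4. Apob changed most, to -0.67 (95% interval -1.34 to -0.0027). After the correction 7 members were lower in every SS library, Apom having joined the 6, against 16.2% of genes, and Apoa4 was still higher in every SS library, against 8.44%. None was called, against 1.13% of genes, with edgeR adjusted p between 0.116 for Apoa5 and 0.743 for Apoa1. At an unadjusted p under 0.05 by edgeR this fit took 9 of the 10, all but Apoa1. The share of all genes at that p was not computed for this fit, so the count has no background.

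When both libraries that stood apart were dropped, 4 members were called, against 5.21% of all genes (2.72% higher, 2.49% lower). Apoa4 rose by 0.68 (log2, SE 0.141, edgeR adjusted p = 0.0306) and Apoa1 by 0.60 (SE 0.138, edgeR adjusted p = 0.0416). Apoe fell by 0.49 (SE 0.112, edgeR adjusted p = 0.0399) and Apoa5 fell by 0.50 (SE 0.123, edgeR adjusted p = 0.0496). Apoc1, Apoc3, Apoh and Apoa2 had log2 fold changes of -0.46, -0.37, -0.36 and -0.32 and were not called. Nor were Apob, at -0.14, and Apom, at -0.031 (edgeR adjusted p = 0.582 and 0.935). This setting compares 2 libraries with 2, was chosen with knowledge of the data, and takes its AS spread from AS replicates 2 and 3, the unusually close pair. With that pair summed into 1 library and all SS libraries kept, 0 of the 10 members were called, against 0.236% of genes, with edgeR adjusted p of 0.669 to 0.866, and 0 had an unadjusted p under 0.05.

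**Figure D3:**
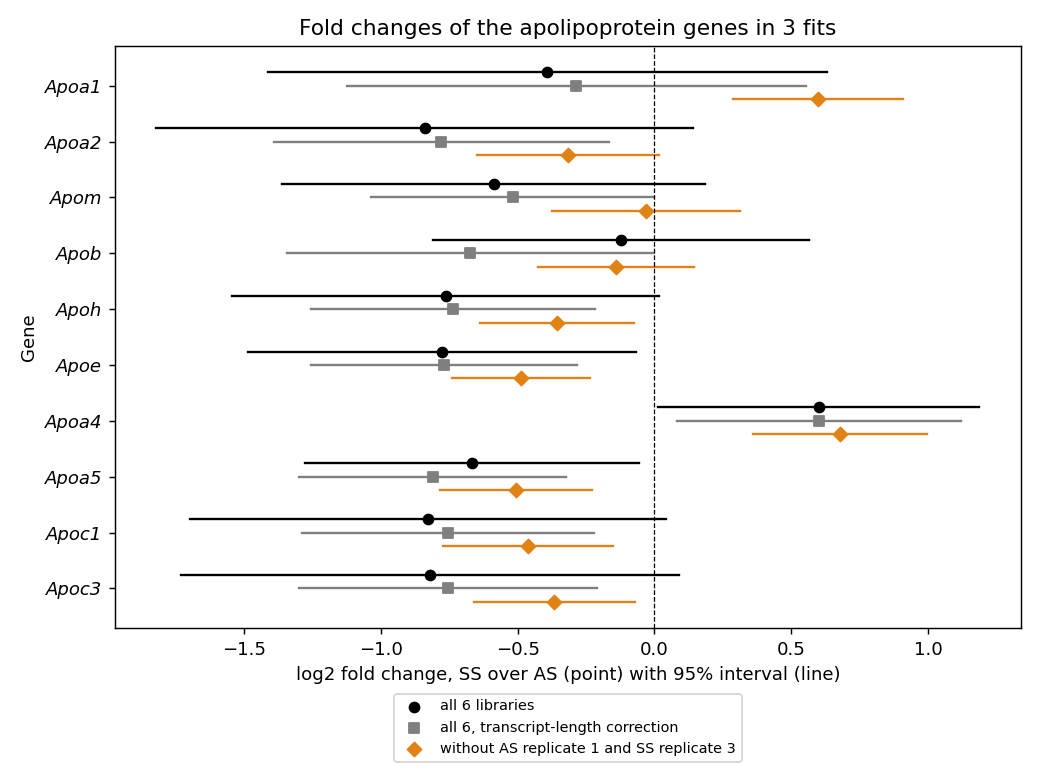
log2 fold change of SS over AS (x axis, points) with 95% intervals (lines) for each apolipoprotein gene, in the fit of all 6 libraries (black), the fit with a transcript-length correction (grey) and the fit without AS replicate 1 and SS replicate 3 (orange). Apoa4 lies above 0 and Apoe and Apoa5 lie below 0 in all 3 fits, while Apoa1 changes side.

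Within the chromosome 9 cluster, ratios taken inside a library need no scaling factor between libraries. They keep the length gradients of SS replicate 3 and AS replicate 1, since the genes differ in transcript length. Apoa4 had 0.555, 0.636 and 1.09 times the CPM of Apoa5 in SS and 0.371, 0.264 and 0.262 times in AS, so the SS ratios were all above the AS ratios. The ratio of Apoa4 to Apoc3 was 0.177, 0.236 and 0.784 in SS and 0.116, 0.0952 and 0.104 in AS, again with no overlap. Against Apoa1 the ratio was 0.0845, 0.0816 and 0.168 in SS and 0.0341, 0.0755 and 0.0820 in AS, where the groups overlapped. With length-corrected levels the ratio of Apoa4 to Apoc3 was 0.186, 0.266 and 0.526 in SS and 0.139, 0.101 and 0.104 in AS, and that to Apoa5 was 0.564, 0.609 and 1.27 in SS and 0.342, 0.255 and 0.259 in AS, still without overlap. The corrected ratio to Apoa1 was 0.0862, 0.0877 and 0.134 in SS and 0.0381, 0.0774 and 0.0817 in AS, which no longer overlapped. Apoa4 was higher in every SS library, and Apoa5 and Apoc3 were lower in every SS library, before and after the length correction. The ratios of Apoa4 to Apoa5 and to Apoc3 therefore had to separate and add nothing to those levels. These ratios were chosen after the levels were seen and are given as a description.

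**Figure D4:**
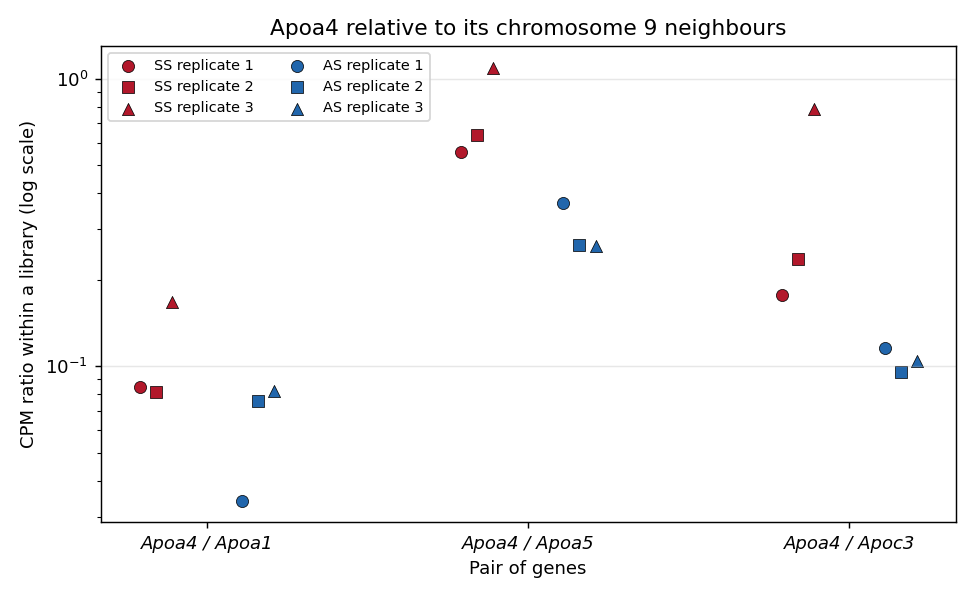
CPM ratio of Apoa4 to Apoa1, Apoa5 and Apoc3 within each library (y axis, log scale) for SS (red) and AS (blue) libraries, with a shape for each replicate number. The SS and AS points separate for Apoa5 and Apoc3, which follows from the levels of the genes themselves, and overlap for Apoa1.

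The promoters of Apoa2, Apoa5 and Apoe are shown because these 3 members were lower together in all SS libraries and their RefSeq start sites coincide with those of GENCODE. Each is the 250 bases before the start, 5′ to 3′ on the gene's strand, from RefSeq on GRCm38.p6 (the mm10 assembly). Capitals mark matches on either strand to any of 5 motifs: the TATA box TATAAA, the CCAAT box CCAAT, the nuclear receptor core AGGTCA, the direct repeat with 1 base between that receptors such as HNF4A bind, and the HNF1 core GTTAAT.
Apoa2, chr1:171224804-171225053, plus strand: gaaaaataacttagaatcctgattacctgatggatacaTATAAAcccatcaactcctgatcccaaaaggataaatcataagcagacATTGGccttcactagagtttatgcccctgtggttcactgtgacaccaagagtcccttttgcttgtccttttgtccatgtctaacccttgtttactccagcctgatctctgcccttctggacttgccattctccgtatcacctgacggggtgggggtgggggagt
Apoa5, chr9:46268383-46268632, plus strand: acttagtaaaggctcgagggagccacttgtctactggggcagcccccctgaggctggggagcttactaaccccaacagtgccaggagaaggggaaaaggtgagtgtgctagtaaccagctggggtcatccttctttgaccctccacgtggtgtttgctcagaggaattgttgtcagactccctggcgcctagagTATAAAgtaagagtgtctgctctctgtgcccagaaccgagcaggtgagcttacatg
Apoe, chr7:19699189-19699438, minus strand: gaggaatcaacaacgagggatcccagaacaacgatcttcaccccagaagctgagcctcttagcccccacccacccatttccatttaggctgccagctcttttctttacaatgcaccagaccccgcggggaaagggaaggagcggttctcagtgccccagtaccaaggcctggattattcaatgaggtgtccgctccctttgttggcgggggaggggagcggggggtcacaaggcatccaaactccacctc
Counted from the start, Apoa2 holds a TATA box match at -212 and a CCAAT match on the opposite strand at -164, Apoa5 holds a TATA box match at -56, and the Apoe window holds none of the 5 motifs. Among 27025 RefSeq promoter windows of the same length, 13% hold TATAAA, 34.5% CCAAT, 13.8% AGGTCA, 6.52% GTTAAT and 0.333% the direct repeat. The 3 genes thus share no match to these letters in these windows.

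The 3 genes outside the family with levels most like those of Apoe across the 6 libraries were A1bg, Hsd3b7 and Ecsit, with Pearson correlations of log2 CPM of 0.998, 0.998 and 0.997 among 9812 genes ranked. A1bg, a plasma glycoprotein gene, had 499, 496 and 48.3 CPM in SS and 1656, 1321 and 1302 CPM in AS. Hsd3b7, an enzyme of bile acid synthesis, had 493, 498 and 270 CPM in SS and 697, 643 and 634 CPM in AS. These correlations rest on 6 libraries that differ in genotype and in the length gradients above, the largest being that of SS replicate 3.

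Other apolipoproteins and the enzymes, receptors and transcription factors of the pathway were read in 5 lists chosen by function. Of the 86 genes tested on these lists, Lpl was the only one called, against 0.967% of all genes. Lpl, the lipase that releases fatty acids from triglyceride-rich particles and is low in adult hepatocytes, rose to 294, 617 and 183 CPM in SS, against 101, 40.1 and 54.2 CPM in AS (log2 fold change 2.49, SE 0.486, edgeR adjusted p = 0.0462). All SS libraries were above the AS libraries. Its call ended in every fit that left out 1 library except the one without SS replicate 3, while its log2 fold change stayed between 1.85 and 2.94 in those fits. It also ended with the length correction (log2 fold change 2.24, edgeR adjusted p = 0.123). Macrophages and muscle make Lpl. Of the sums given above, that of recruited macrophages and monocytes was higher in every SS library, and that of Kupffer cells overlapped between the groups. The part of these cells in the Lpl level was not tested.

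The list of other apolipoproteins also holds genes named after them, such as Apobr, Apoo and Apool. Of its 11 genes tested, the median log2 fold change was -0.49, and 9 were on the lower side, against 43.7% of all genes. None was called by edgeR, while DESeq2 called 1 (3.59% of all genes). By edgeR 2 had an unadjusted p under 0.05, both lower in SS, against 12.7% of all genes in either direction. Of all 12622 genes, 452 were lower at that p. In 3 of the 11 the groups did not overlap, all lower in SS, against 9.04% of all genes. Apof, an inhibitor of lipid transfer on plasma lipoproteins, had 776, 826 and 659 CPM in SS and 1338, 1236 and 1236 CPM in AS, with no overlap (log2 fold change -0.75, SE 0.250, adjusted p of 0.249 by edgeR and 0.0325 by DESeq2). Apon averaged 341 ± 118 CPM in SS and 561 ± 104 CPM in AS (log2 fold change -0.72, edgeR adjusted p = 0.389), and Apol7a 89.6 ± 36.7 and 163 ± 76.0 CPM (-0.87, edgeR adjusted p = 0.425; SD, n = 3 each). Clu, a chaperone also known as apolipoprotein J, had 1405, 1964 and 1245 CPM in SS and 1351, 1193 and 1076 CPM in AS, and its groups overlapped (log2 fold change 0.35, edgeR adjusted p = 0.616).

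None of the 18 genes of VLDL assembly and ApoB editing was called by edgeR or DESeq2. At an unadjusted p under 0.05 edgeR took 1, against 12.7% of all genes. The groups did not overlap in 3 of the 18, 1 higher and 2 lower in SS. Over all genes 12.1% were higher and 9.04% lower without overlap. The median log2 fold change was -0.14, and 0.16 with library totals alone. Apobec1, the deaminase that edits Apob mRNA to make the short ApoB form, had the lowest p, at 25.5 ± 2.73 CPM in SS and 16.7 ± 1.83 CPM in AS, with no overlap (log2 fold change 0.61, SE 0.255, edgeR adjusted p = 0.365). Dgat2, which makes triglyceride for VLDL, averaged 363 ± 81.0 CPM in SS and 541 ± 21.5 CPM in AS, with all SS libraries lower (log2 fold change -0.58, edgeR adjusted p = 0.396). The lipid droplet gene Cidec had a log2 fold change of 1.34 (edgeR adjusted p = 0.406) at only 4.87 and 1.94 CPM in SS and AS. The chaperones P4hb and Pdia3, the most abundant of the list, had -0.28 and -0.51.

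Of 14 tested genes of HDL formation and plasma remodelling, Lpl was called, and the median was -0.11. By edgeR 3 others had an unadjusted p under 0.05 and lower values, as did 452 of all 12622 genes. In 5 of the 14 the groups did not overlap and were lower in SS, against 9.04% of all genes. Lpl was the 1 that was higher without overlap, against 12.1%. Pon1, an HDL-bound esterase, averaged 780 ± 212 CPM in SS and 1377 ± 99.2 CPM in AS (log2 fold change -0.82, edgeR adjusted p = 0.266), and Gpihbp1, which anchors lipoprotein lipase to endothelium, 23.0 ± 3.84 and 36.2 ± 2.31 CPM (-0.65, edgeR adjusted p = 0.316; SD, n = 3 each). Both were lower in every SS library. The abundant plasma protein gene Itih4 had a log2 fold change of 0.055 (SE 0.280, edgeR adjusted p = 0.951).

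None of 16 lipoprotein receptor and uptake genes was called by edgeR, and DESeq2 called 1 (3.59% of all genes). In 2 of the 16 the groups did not overlap, both higher in SS, against 12.1% of all genes. At an unadjusted p under 0.05 edgeR took 2, against 12.7% of all genes. The median was 0.16, but -0.17 with the length correction and -0.074 without SS replicate 3. Cd36, a scavenger receptor and fatty acid carrier, had 138, 151 and 286 CPM in SS and 60.4, 83.4 and 81.2 CPM in AS, with no overlap (log2 fold change 1.36, SE 0.323, adjusted p of 0.0949 by edgeR and 0.00525 by DESeq2). Sort1, a sorting receptor for ApoB, had 0.73 (edgeR adjusted p = 0.379). The heparan sulfate remnant receptor gene Sdc1 and the ApoE receptor gene Lrp1 had -0.12 and 0.073, and that of Lrp1 was -0.40 without SS replicate 3, where it stood at 958 CPM.

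None of 27 tested transcription factors of apolipoprotein genes was called by edgeR or DESeq2, and the median was -0.14. At an unadjusted p under 0.05 edgeR took 2, both lower in SS, against 12.7% of all genes in either direction. Of all 12622 genes, 452 were lower at that p. In 5 of the 27 the groups did not overlap, all lower in SS, against 9.04% of all genes. Nr1d1, a clock repressor known to bind the Apoc3 and Apoa1 promoters, averaged 35.0 ± 14.4 CPM in SS and 69.7 ± 11.1 CPM in AS (log2 fold change -0.99, SE 0.309, edgeR adjusted p = 0.208). Srebf1, the regulator of fatty acid synthesis, averaged 109 ± 14.0 and 190 ± 43.3 CPM (-0.79, SE 0.265, edgeR adjusted p = 0.250; SD, n = 3 each). Both were lower in every SS library. Hnf4a, the nuclear receptor that activates most apolipoprotein genes in liver, had 330, 378 and 670 CPM in SS and 396, 426 and 399 CPM in AS (log2 fold change 0.17, edgeR adjusted p = 0.835), and -0.21 when SS replicate 3 was dropped. Creb3l3, a membrane-bound factor known to activate Apoa4 in mouse liver, had 239, 265 and 297 CPM in SS and 496, 293 and 267 CPM in AS, so it overlapped (log2 fold change -0.40, edgeR adjusted p = 0.590). The coactivator gene Ppargc1a had 0.89 (edgeR adjusted p = 0.405) with all libraries and 0.23 when both libraries that stood apart were dropped.

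**Figure D5:**
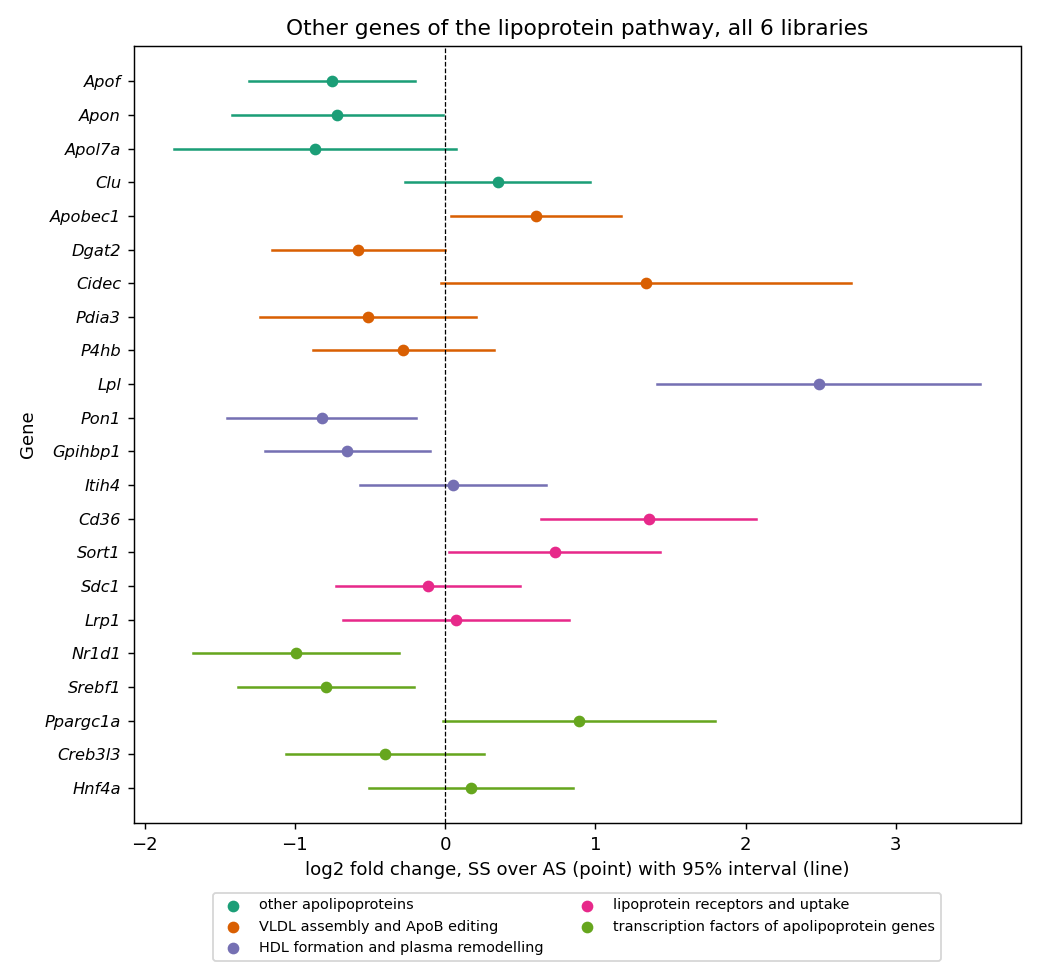
log2 fold change of SS over AS (x axis, points) with 95% intervals (lines) for other genes of the lipoprotein pathway, coloured by list, in the fit of all 6 libraries. Lpl, at 2.49, was the 1 gene called, and Cd36, at 1.36, has the next interval farthest above 0.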

How the data were processed

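Liver RNA sequencing of 3 SS and 3 AS libraries was analysed from the raw read counts per gene that the authors deposited, 1 table per sample. The submitters' processing notes name HISAT2, HTSeq and the build mm10. Their versions, annotation and strand setting are not given in the sources used here. Per library, 5 lines naming no gene held 66.65% to 78.45% of all counts and entered neither library sizes nor tests.

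Low genes were removed with filterByExpr (minimum count 10, minimum total 15), and SS was compared with AS in R 4.3.3 by edgeR 4.0.16 (TMM factors, robust quasi-likelihood F-test, two-sided, Benjamini-Hochberg over all genes, called under 0.05). CPM used the same factors, and the SE came from the F statistic. The procedure was tested on simulated data. DESeq2 1.42.0, limma-voom (limma 3.58.1) and other settings served as alternatives. Positions and transcript lengths are from GENCODE on mm10. Members and lists were chosen with earlier results of these data known. The text names all members and, of each list, the called genes, the 3 with the lowest p and the 2 with the highest CPM, and the 3 genes most correlated with the member of lowest p; 1 gene that this rule names is not reported here. Overlapping antisense genes and near copies remain uncertain.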

Additional observations from a re-analysis of the deposited data

How the results depend on the processing

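Of 180 values of the 10 members under 18 alternatives, 172 kept their direction and their side of the threshold, 3 became called with the same sign (Apoa4, Apoa5 and Apoe without AS replicate 1 and SS replicate 3) and 5 changed sign, 1 of them, Apoa1, also called in that fit. The sign changes were Apoa1, at 0.37 without AS replicate 1 and 0.60 without AS replicate 1 and SS replicate 3, and Apob, at 0.19 with library totals alone, 0.11 without AS replicate 1 and 0.018 without SS replicate 1. The length correction, the summed AS pair and the fit without both libraries that stood apart were chosen after seeing the data or with earlier results known. With 1 library left out in turn, Apoa1 ran between -0.69 and 0.37 and Apob between -0.38 and 0.11. Library totals alone moved the median of all genes to 0.36, against 0.08 with TMM factors. The number of members called was 0 in every alternative except 4 without both of those libraries. Over all genes the count of calls was 122. It was 217 (188 higher, 29 lower) with no filter, 453 (360 and 93) by DESeq2, 31 (30 and 1) by limma-voom, 31 (31 and 0) with AS replicates 2 and 3 summed and 662 (346 and 316) without AS replicate 1 and SS replicate 3. It was 22 to 99 with 1 library left out in turn (22 to 85 higher and 0 to 15 lower). The number called lower was 7, and 4 with upper-quartile factors, 1 with library totals alone and 33 with the length correction. The number of pathway genes called was 1. It was 0 with median-ratio factors, limma-voom, the length correction or AS replicates 2 and 3 summed, 2 with no filter, 3 by DESeq2, 9 without AS replicate 1 and SS replicate 3, and 0 to 1 with 1 library left out. The difference in the summed read share was -0.585 percentage points without both libraries. List medians changed sign too. With library totals alone the VLDL assembly, HDL and transcription factor lists stood at 0.16, 0.16 and 0.15, and the HDL list at 0.096 without AS replicate 1. The receptor list stood at -0.17 with the length correction, -0.074 without SS replicate 3 and -0.021 in the fit of 4 libraries. Other sign changes were in single genes. P4hb had 0.0087 with library totals alone. Itih4 lay between -0.070 and 0.28 with 1 library left out (-0.063 without AS replicate 2, -0.0035 without SS replicate 2), and had -0.058 with the AS pair summed and -0.20 with the length correction. Sdc1 had 0.15 with library totals alone and -0.37 to 0.041 with 1 library left out. Lrp1 had -0.022 by limma-voom, -0.40 to 0.27 with 1 library left out (-0.041 without AS replicate 1), and -0.50 both in the fit of 4 libraries and with the length correction. Hnf4a had -0.21 to 0.36 with 1 library left out, -0.22 in the fit of 4 libraries and -0.16 with the length correction. The causes were not tested.

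The labels number replicates 1 to 3 in both groups and do not say whether the numbers pair libraries. Deviations of same-numbered libraries from their group means correlated at 0.0601, -0.156 and 0.237 across genes. Those of libraries with different numbers ran from -0.277 to 0.294. These few correlations cannot decide whether the libraries are paired, since deviations within a group sum to 0. A fit with the replicate number as a block called 460 genes (367 higher, 93 lower), 3 pathway genes and 0 members, and gave Lrp1 -0.020.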
